A study of Mus musculus with 96 samples.

Results

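The respiratory chain is built from the products of separate genomes, and its transcripts were compared here between mouse embryonic stem cells (ES cells) and mouse embryonic fibroblasts (MEFs). Members were the gene rows whose symbol starts with mt-, Nduf, Uqcr or Atp5, together with Cox4 to Cox8 rows and the 4 Sdh genes, which gave 127 of 21711 gene rows. Of these, 37 lie in the mitochondrial genome (13 mRNAs, 2 rRNAs and 22 tRNAs) and 90 in nuclear chromosomes. The nuclear rows hold 83 structural subunits, 5 assembly factors (Ndufaf1 to Ndufaf4 and Atp5sl) and 2 rows that share the symbol pattern without being subunits, Atp5s and Cox4nb. A row was called measured with at least 20 reads over both cell types, which 120 of the 127 rows reached. The 7 others were the subunit rows Cox8b and Cox8c, with no read, Ndufa4l2, and the tRNA rows mt-Tq, mt-Tw, mt-Ty and mt-Tr. Of the members with a read, Atp5j and Ndufs5 had less than 95% of their reads uniquely mapped.

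Oxidative phosphorylation passes electrons from NADH and succinate through complexes I, II, III and IV to oxygen, pumps protons across the inner mitochondrial membrane at complexes I, III and IV, and lets them return through complex V, the ATP synthase. Complex II is made of nuclear products alone, whereas each of the other complexes combines nuclear subunits with core subunits encoded by mitochondrial DNA. Mitochondrial genes are transcribed as long RNAs from both strands of the circle and then cut, mostly at the tRNAs, while every nuclear subunit has a promoter of its own. Pluripotent stem cells are known for relying heavily on glycolysis, and fibroblasts for a more developed mitochondrial network.

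The cells came from 1 plate of single-cell tagged reverse transcription (STRT), in which sequencing starts at the 5′ ends of transcripts and keeps their strand. The plate held 48 wells of R1 ES cells, pluripotent cells derived from the early mouse embryo, 44 wells of MEFs and 4 negative controls. ES cells were cultured by a procedure that the labels cite, and MEFs in DMEM with serum. The labels name no genetic change or treatment, and give R1 as the source line of the MEF wells also, which is at odds with their cell type. With at least 10000 gene reads required, 45 ES cells and 44 MEFs were kept, with 13576 to 703423 gene reads in an ES cell (median 161206) and 63938 to 1883709 in a MEF (median 851801). No separate cultures are named, so each type was 1 sample and no p-value was computed. Differences are given as log2 ratios of counts scaled to the total of gene reads (CPM), ES cell over MEF, beside the standard deviation (SD) of the same ratio over the 8 plate rows, each of which held both types. A difference smaller than this SD lies within the spread, whether or not it is past 2-fold. A type without a read of a gene in a plate row was given a floor count there. For genes with few reads, this SD and the direction over plate rows are therefore partly set by that floor. Intervals are 95% exact intervals and cover counting error only, as the reads carry no molecular identifiers. ES cells filled plate columns 1 to 6 and MEFs columns 7 to 12, so cell type and side of the plate cannot be told apart.

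The labels matched the markers in the median cell, while the ranges of the fibroblast markers overlapped between the types. The summed level of 8 ES cell markers had a median of 6389 CPM in ES cells (221 to 20338) and 22.7 CPM in MEFs (0 to 184), and that of 8 fibroblast markers 1104 CPM in ES cells (212 to 24303) and 21966 CPM in MEFs (5911 to 65733). Summed macrophage, endothelial and muscle markers had a median of 0 in both types, with highest cells at 12.4, 64.9 and 109 CPM among ES cells and 75.3, 103 and 208 CPM among MEFs. Epithelial markers also had a median of 0, reaching 1061 CPM in an ES cell and 59.9 CPM in a MEF, and neural markers had medians of 0 and 6.79 CPM, reaching 182 and 848 CPM. The part of such cells in the results was not tested. The profiles of ES cell replicates 4, 7, 10 and 22 lay nearer to the mean MEF profile. The median cell had 46.2% of its reads in ribosomal protein genes among ES cells and 14.2% among MEFs, and the median of all 12818 measured genes was a log2 ratio of −1.48 (SD 0.472 over plate rows). A gene at that median has no difference from the typical gene, so values relative to it are also given.

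Mitochondrial transcripts took a larger share of reads in ES cells, while the nuclear members took nearly the same share in both types. In ES cells the mitochondrial share ran from 0.541% to 7.26% of gene reads with a median of 2.37%, and in MEFs from 0.183% to 9.47% with a median of 0.696%. The ES cell range lay inside the MEF range, so both the lowest and the highest cell of all were MEFs. Pooled over cells, the share was 2.71% in ES cells (2.70 to 2.72) and 1.21% in MEFs (1.206 to 1.214), a log2 ratio of 1.16 (SD 0.954), which turned to −3.40 when reads were scaled to the spike-in RNA instead of to gene reads. The 90 nuclear members summed to 1.74% of reads in ES cells (1.73 to 1.75) and 1.78% in MEFs (1.778 to 1.787), and single cells ran from 0.488% to 4.71% (median 1.44%) and from 0.544% to 3.63% (median 1.77%). Negative controls, with 236 to 4662 gene reads, held 1.13% mitochondrial reads (0.948 to 1.33) and 1.87% from nuclear members (1.64 to 2.12), so their composition lay near that of the MEFs, and 34 nuclear and 9 mitochondrial members had a read in at least 1 of these wells.

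**Figure D1:**
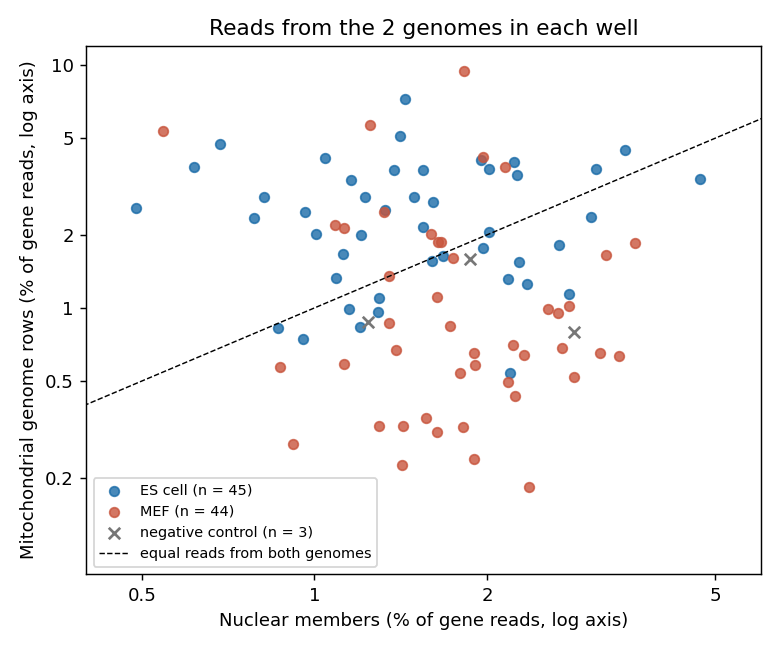
Each point is a well, with the share of its gene reads in nuclear members on the x axis and in mitochondrial genome rows on the y axis (percent, both axes logarithmic), for 45 ES cells, 44 MEFs and the 3 of 4 negative controls that held a nuclear member read. Points above the dashed line have more mitochondrial than nuclear member reads, as 28 ES cells and 12 MEFs did.

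Within a well, the ratio of mitochondrial to nuclear member reads does not depend on how wells are scaled. This ratio was 1.56 in ES cells and 0.679 in MEFs from pooled reads, with 0.603 in the negative controls. The log2 difference was 1.20 (SD 0.925) and was positive in 7 of 8 plate rows, row A being the exception with 0.738 in ES cells against 0.964 in MEFs. Single ES cells ran from 0.247 to 6.91 with a median of 1.48, and single MEFs from 0.0772 to 9.82 with a median of 0.376. Mitochondrial reads outnumbered nuclear member reads in 28 ES cells of 45 and 12 MEFs of 44. Without the 4 ES cells nearer to the MEF profile the difference was 1.08. Leaving out any cell moved the log2 difference between 1.09 (without ES cell replicate 21) and 1.36 (without MEF replicate 49). The shares from the separate genomes did not track each other across cells, with a Spearman coefficient of 0.05 over 45 ES cells and −0.09 over 44 MEFs, both shares being taken of the same reads.

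Plate position moved with the mitochondrial share inside each type. In MEFs of column 7 the median share was 3.98%, against 0.542% to 1.14% in columns 8 to 12. In ES cells of column 3 it was 4.11%, against 1.26% to 2.86% in the other columns. Column 7 also had the lowest median of gene reads per spike-in read among MEF columns, 68.9, and its pooled mitochondrial to nuclear ratio of 1.90 was above that of 5 of the 6 ES cell columns. Without column 7 the MEF ratio was 0.453 and the log2 difference 1.78, and without columns 3 and 7 the difference was 1.38. The nuclear members moved less, with pooled shares of 1.38% to 2.20% over ES cell columns and 1.49% to 2.13% over MEF columns. The part of plate position in the difference between the types was not tested.

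**Figure D2:**
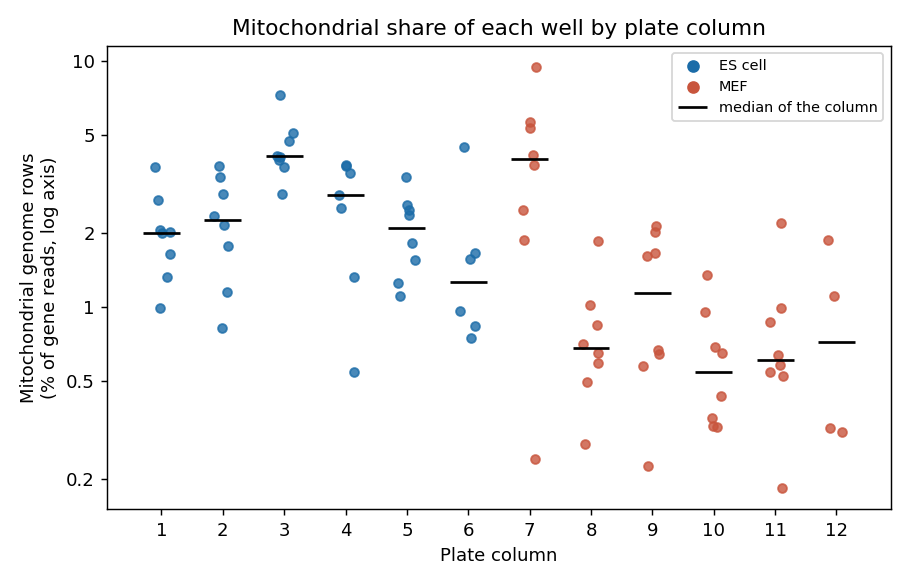
Each point is a cell, placed by its plate column (x axis) and the share of its gene reads in mitochondrial genome rows (y axis, percent, logarithmic), with a black bar at each column's median. MEF column 7 (median 3.98%) and ES cell column 3 (median 4.11%) stand above the other columns of their type.

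The mitochondrial mRNAs differed unequally. All 13 were measured, and 6 exceeded their MEF level by 2-fold or more in ES cells (mt-Atp8, mt-Co1, mt-Co2, mt-Nd1, mt-Nd4l and mt-Nd6), while 0 did so in the other direction. Of all measured genes, 15.4% were past 2-fold on the ES cell side and 58.5% on the MEF side. The median of the 13 was 0.80 (SD 0.951), within the spread, or 2.28 above the median gene, in the scaling to gene reads, while spike-in scaling reverses the direction as for the share above. Their pooled sum was 23597 CPM in ES cells and 10594 CPM in MEFs, against 9499 CPM in the negative controls.

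mt-Co1, the catalytic subunit of complex IV, was the most read member in each type. It ran from 147 to 34517 CPM over ES cells (median 6437) and from 678 to 26885 CPM over MEFs (median 2525). Its pooled level was 8452 CPM (8391 to 8513) against 4141 CPM (4119 to 4162), a log2 ratio of 1.03 (SD 1.13), within the spread, that fell under 2-fold without ES cell replicate 22 (0.87). mt-Co2, which carries the copper centre that accepts electrons from cytochrome c, ran from 339 to 8958 CPM in ES cells (median 3451) and from 13.9 to 8852 CPM in MEFs (median 794). The mt-Co2 difference was larger, at 1.72 (SD 0.946), and had the same direction in 8 of 8 plate rows. mt-Co3, the remaining core subunit of complex IV, had a median of 1045 CPM in ES cells and 415 CPM in MEFs and a smaller log2 ratio of 0.68 (SD 1.15), within the spread.

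Among the complex I core subunits, mt-Nd1, which forms part of the quinone site, ran from 0 to 6234 CPM in ES cells (median 1373) and from 6.95 to 4020 CPM in MEFs (median 408). Its log2 ratio was 1.38 (SD 0.729), with ES cells higher in 8 of 8 plate rows. Within the spread over plate rows were mt-Nd2 at 0.80 (SD 0.968), mt-Nd4 and mt-Nd5, both proton-pumping subunits, at 0.23 (SD 1.05) and 0.23 (SD 0.822), and mt-Nd3 at 0.04 (SD 0.742). mt-Cytb, the mitochondrial subunit of complex III, ran from 0 to 1659 CPM in ES cells (median 311) and from 3.47 to 2660 CPM in MEFs (median 389), with a log2 ratio of −0.04 (SD 1.38). It was the member of the 13 with the lowest ratio, although it lay 1.43 above the median gene.

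Some neighbouring mitochondrial genes share a stretch of the same RNA and can be set side by side without regard to scaling. mt-Atp8 and mt-Atp6, both subunits of the membrane part of ATP synthase, overlap by 43 bases, and mt-Nd4l and mt-Nd4 by 7 bases, all on the plus strand of chrM. The overlaps are shown with 20 flanking bases on each side (GRCm38, GENCODE annotation), because reads there could be counted for either gene. Capitals mark the bases inside both open reading frames, from the start codon of the downstream gene to the end of the upstream gene.
mt-Atp8 and mt-Atp6, chrM:7907-7989: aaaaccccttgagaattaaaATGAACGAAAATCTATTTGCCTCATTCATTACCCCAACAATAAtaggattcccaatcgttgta
mt-Nd4l and mt-Nd4, chrM:10147-10193: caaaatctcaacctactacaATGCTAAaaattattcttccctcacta

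Over the plate, 627 reads of mt-Atp8 and as many of mt-Atp6 were counted beyond the uniquely mapped ones, 0.783% and 1.94% of their reads. For mt-Nd4l and mt-Nd4 this number was 95, or 0.708% and 0.644%. mt-Atp8 ran from 399 to 13092 CPM in ES cells (median 3742) and from 41.7 to 7726 CPM in MEFs (median 774), and its log2 ratio was 1.81 (SD 1.16). mt-Atp6 ran from 0 to 2651 CPM (median 660) and from 0 to 5896 CPM (median 371), with 0.39 (SD 0.963). Reads assigned to the upstream gene of this RNA thus differed more between the types than those assigned to the downstream gene. Whether the types differ in where reads fall along the shared RNA was not tested.

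The ratio of mt-Atp8 to mt-Atp6 reads was 4.70 in ES cells, 1.75 in MEFs and 1.07 in the negative controls, a log2 difference of 1.42 (SD 0.891), positive in 7 of 8 plate rows. Over the 41 ES cells and 41 MEFs with at least 10 reads from each gene, its median was 4.65 (0.174 to 49.1) and 1.85 (0.272 to 17.5). mt-Nd4l over mt-Nd4 showed the same direction, with 1.63 in ES cells and 0.701 in MEFs, a log2 difference of 1.22 (SD 0.742) in 8 of 8 plate rows. Its single-cell median was 1.47 over 24 ES cells and 0.610 over 37 MEFs. Gene reads per cell and ribosomal protein share also differed between the types, and their part in these ratios was not tested.

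The ribosomal RNAs of the mitochondrion were read beside its mRNAs at a ratio that was equal in the pooled reads and not in the median cell. mt-Rnr2, the large rRNA, had a median of 2850 CPM in ES cells (0 to 6741) and 484 CPM in MEFs (0 to 18002), and mt-Rnr1, the small rRNA, 442 CPM (0 to 1741) and 91.9 CPM (0 to 3112). The pooled ratio of rRNA to mRNA reads was 0.138 and 0.137, a log2 difference of 0.00 (SD 0.644), while the median over single cells was 0.146 for ES cells (0.0207 to 0.487, n = 44) and 0.0960 for MEFs (0.00877 to 0.341, n = 43). Reads in tRNA rows were few, 1862 in ES cells and 1813 in MEFs. Among the 18 measured tRNA rows, 14 were past 2-fold on the ES cell side and 1, mt-Tm, on the MEF side. The shares of all measured genes past 2-fold on these sides were 15.4% and 58.5%. For mt-Tm, 0 reads in ES cells against 154 in MEFs gives a level at least 12.7-fold higher in MEFs with a floor of 3 reads over the ES cells, and 59.7% of those reads came from MEF replicate 63. The tRNA rows were close to the limit of detection, as the median row had a read in 8.89% of the ES cells and in 12.5% of the MEFs.

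mt-Nd6 is the single mRNA of the 13 that is read from the opposite strand. It ran from 0 to 3418 CPM in ES cells (median 29.8) and from 0 to 337 CPM in MEFs (median 2.21). Pooled levels were 304 CPM (293 to 316) and 18.1 CPM (16.7 to 19.6), a log2 ratio of 4.07, and the SD over plate rows was as large as 3.40. A few cells carried the reads: ES cell replicate 20 held 32.7% of the ES cell reads and MEF replicate 77 held 49.2% of the MEF reads. All rows of that strand together, 9 of the 37, made up 1.31% of mitochondrial reads in ES cells (1.27 to 1.36) and 0.261% in MEFs (0.246 to 0.277). Their log2 difference of 2.34 was near its SD of 2.24.

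**Figure D3:**
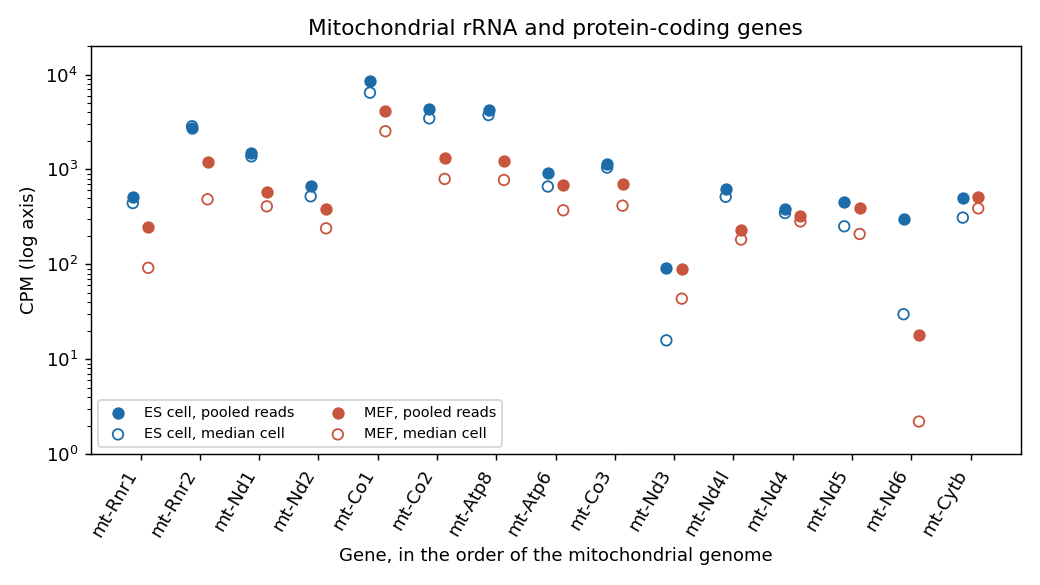
Pooled CPM (filled) and the CPM of the median cell (open) for the 2 rRNA and 13 protein-coding genes in the order of the mitochondrial genome, on a logarithmic y axis, for 45 ES cells and 44 MEFs. mt-Co2 and mt-Atp8 are far apart between the types, whereas mt-Cytb and mt-Nd3 overlap in the pooled reads.

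The nuclear subunits as a group were nearly level between the types in CPM and therefore high in ES cells relative to the typical gene. Of 83 subunit rows 80 were measured, with a median log2 ratio of −0.23 (SD 0.276). Past 2-fold were 6 on the ES cell side and 13 on the MEF side, leaving 61 between, or 7.5% and 16.25% of the group beside the 15.4% and 58.5% of all measured genes. Relative to the median gene the group median was 1.25, with 74 of 80 subunits above that gene. The group sum was 17322 CPM in ES cells, 17714 CPM in MEFs and 18680 CPM in the negative controls. The sign of the group median depends on the scaling, since it was 1.06 with median-of-ratios scaling, 0.47 with ribosomal protein and mitochondrial rows left out of the totals, and −4.79 with spike-in scaling.

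**Figure D4:**
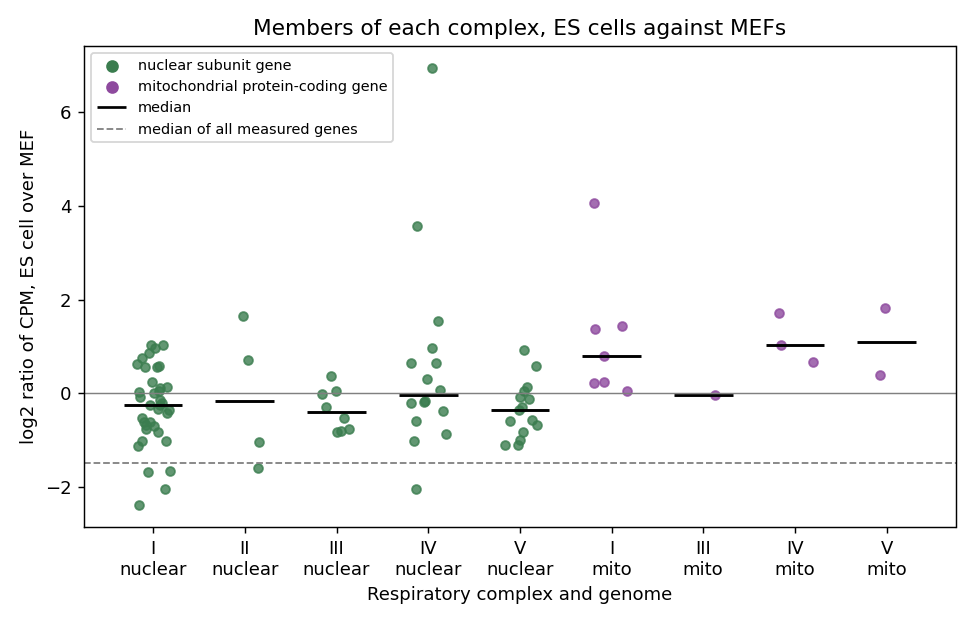
Each point is a measured gene, placed by complex and genome (x axis) at its log2 ratio of CPM, ES cell over MEF (y axis), with a bar at each group's median, a solid line at 0 and a dashed line at the median of all measured genes (−1.48). The nuclear medians lie between −0.41 and −0.05 under this scaling and become positive under median-of-ratios scaling, and the topmost nuclear point, Cox7b2, is a lower bound.

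Transcript length moved with the ratio across all genes. Nuclear subunits are short, with a median of 669 bases against 2862 bases for all measured genes. In the 44 subunits of up to 700 bases the median log2 ratio was −0.23, close to the −0.26 of all 468 measured genes of that length and above the −0.77 of the 357 that are neither members nor ribosomal protein genes. In the 17 subunits of over 700 and up to 1200 bases it was −0.08, against −0.80 for all genes, and in the 19 longer ones −0.52, against −1.59. At a given length the subunits thus lay above other genes by less than the difference of 1.25 from the median of all genes, most plainly among the short ones. The part of length in the position of the group was not tested.

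**Figure D5:**
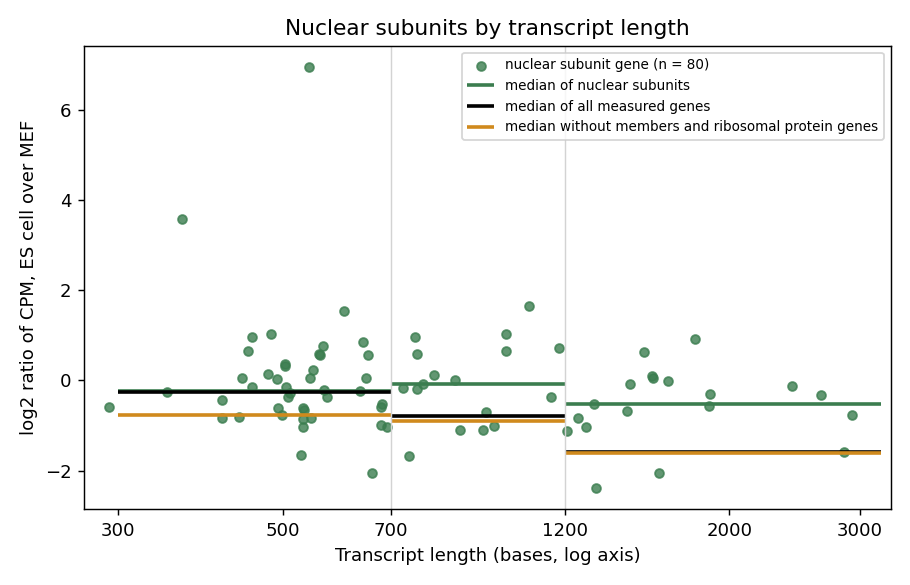
Each point is 1 of 80 measured nuclear subunits, by transcript length (x axis, bases, logarithmic) and log2 ratio of CPM, ES cell over MEF (y axis), with horizontal bars at the medians of 3 length classes. In the shortest class the subunits (−0.23) and all measured genes (−0.26) coincide, and in the longest class they lie apart (−0.52 against −1.59).

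Complex I, the NADH dehydrogenase, had 37 measured nuclear subunits with a median of −0.25 (SD 0.602). Of these, 2 (5.41%) were past 2-fold on the ES cell side and 7 (18.9%) on the MEF side. For all measured genes, here and beside the following complexes, these shares were 15.4% and 58.5%. In complex I, the accessory subunit Ndufa7 ran from 0 to 4283 CPM in ES cells (median 427) and from 0 to 1975 CPM in MEFs (median 283). Its log2 ratio of 1.02 (SD 1.00) fell under 2-fold without ES cell replicate 47 (0.73). The other accessory subunit on that side, Ndufb5, gave 1.04 (SD 0.728), and 0.89 without ES cell replicate 25. Lower in ES cells were the accessory subunits Ndufa2 and Ndufa9. Ndufa2 ran from 0 to 571 CPM in ES cells (median 69.7) and from 0 to 1037 CPM in MEFs (median 349), at −1.66 (SD 0.826), in the same direction in 8 of 8 plate rows. Ndufa9 was near the limit of detection in ES cells, with 60 reads in 6 cells, and its ratio of −2.39 (SD 2.37) had the lowest value of the subunits. Ndufa3 and Ndufa4, both well read, lay within the spread at −0.26 (SD 0.721) and 0.03 (SD 0.560). Ndufa4 was placed in complex I by its symbol alone, here and in the balance between the genomes. Of further members past 2-fold on the MEF side, Ndufa10 (−0.77 without MEF replicate 92), Ndufs8 (−0.84 without MEF replicate 84) and Ndufb7 (−0.80 without MEF replicate 63) fell under 2-fold without 1 cell, and Ndufa8 stayed at −1.55 or lower.

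In complex II, succinate dehydrogenase, Sdhb was the subunit whose pooled difference exceeded the spread over plate rows, and all 4 had a lower median cell in ES cells. Sdhb, the iron-sulfur subunit, was 302 CPM in pooled ES cells (291 to 314) and 96.8 CPM in MEFs (93.5 to 100.1), a log2 ratio of 1.64 (SD 1.29). The median cell showed the opposite, with 6.96 CPM in ES cells (0 to 3304) and 59.2 CPM in MEFs (0 to 399). Reads of Sdhb were found in 24 ES cells of 45 and 36 MEFs of 44, so its ES cell level came from part of the cells. The membrane anchor Sdhc had a pooled log2 ratio of 0.71 (SD 1.92), within the spread, and medians of 18.5 CPM (0 to 1850) and 127 CPM (0 to 917). Sdha, the flavoprotein that oxidises succinate, had a median of 0 in ES cells (0 to 281) and 69.6 CPM in MEFs (0 to 633), at −1.59 (SD 2.40), within the spread. The other membrane anchor, Sdhd, gave −1.03 (SD 1.57), also within it, and −0.91 without MEF replicate 58. Its medians were 0 (0 to 373) and 34.7 CPM (0 to 175). After every cell was thinned to 20000 gene reads, Sdhb reads remained in 15 ES cells out of 42 and 25 MEFs out of 44, and Sdha reads in 11 and 23.

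In complex III, which passes electrons from ubiquinol to cytochrome c, 0 of 8 measured nuclear subunits reached 2-fold in either direction. The median was −0.41 (SD 0.190) and reversed to 0.88 with median-of-ratios scaling and 0.29 without ribosomal protein and mitochondrial rows in the totals. Uqcr10, a small subunit, was almost level, with 0 to 2646 CPM in ES cells (median 372) and 10.7 to 1424 CPM in MEFs (median 409), at 0.05 (SD 0.346). Uqcrh, the hinge protein next to cytochrome c1, ran from 0 to 1409 CPM (median 181) and from 0 to 1517 CPM (median 396), at −0.83 (SD 0.714). Uqcr11 gave −0.81 (SD 0.830) and Uqcrq −0.76 (SD 0.545), the latter lower in ES cells in 8 of 8 plate rows. The remaining subunits under the symbol rule, Uqcrfs1, Uqcrc1, Uqcrc2 and Uqcrb, ranged from −0.52 to 0.36. Cytochrome c1 itself, Cyc1, is also a nuclear subunit of complex III but lies outside the symbol rule. It was left out here and in the balance between the genomes, and gave −0.43 (SD 1.53).

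Complex IV, cytochrome c oxidase, held the most read nuclear members. Cox6c ran from 27.1 to 18412 CPM in ES cells (median 1059) and from 135 to 5521 CPM in MEFs (median 1600), and Cox8a from 53.2 to 5602 CPM (median 1377) and from 444 to 3797 CPM (median 1669). Both were read in every kept cell, as were Cox4i1, Cox7c and Atp5g2 and no other nuclear subunit. Their log2 ratios of 0.31 (SD 0.710) and 0.06 (SD 0.584) were within the spread. The median over 16 measured nuclear subunits was −0.05 (SD 0.421), with 3 past 2-fold on the ES cell side and 2 on the MEF side. Of the latter, Cox5a (−1.02) fell under 2-fold without ES cell replicate 33 (−0.93).

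Several complex IV subunits exist as tissue variants. Cox4i1, the general form of a regulatory subunit, had a median of 436 CPM in ES cells (62.6 to 1082) and 706 CPM in MEFs (30 to 2248), at −0.58 (SD 0.437) and lower in ES cells in 8 of 8 rows, while Cox4i2 had 16 reads in 1 ES cell and 73 reads in 3 MEFs. Cox6a1 gave −0.86 (SD 0.583), also lower in ES cells in 8 of 8 rows, while its muscle form Cox6a2 had 0 reads in ES cells and 50 reads in 1 MEF. Cox8b and Cox8c, the muscle and testis forms of Cox8a, had 0 reads in either type, and Ndufa4l2, the paralogue of Ndufa4, had 3. Of 7 muscle markers, 2 had a read in ES cells (summed level 0 to 109 CPM per cell) and 3 in MEFs (0 to 208 CPM), while Myod1, Myog, Ckm and Myh6 were at 0 in both types. Cox7a2 was 852 CPM in ES cells and 436 CPM in MEFs (0.97, SD 0.587), and Cox7a2l, which takes part in joining complexes into supercomplexes, gave −0.37 (SD 0.646).

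The variants on the ES cell side were Cox6b2, Cox7a1 and Cox7b2. Cox6b2, described as a testis form, ran from 0 to 421 CPM in ES cells (median 54.5) and from 0 to 459 CPM in MEFs (median 17.6), with a log2 ratio of 1.54 (SD 1.75). Against its general form Cox6b1 (330 and 368 CPM, at −0.16), the ratio of reads was 0.420 in ES cells and 0.129 in MEFs, a log2 difference of 1.70 (SD 1.53) in 7 of 8 plate rows. Cox6b2 exceeded Cox6b1 in 9 of the 21 ES cells with at least 10 reads of each, and in 0 of 21 MEFs. As ES cells had fewer gene reads, 10 reads is a higher CPM there, so the cutoff favours ES cells rich in Cox6b2. These counts of cells are therefore not comparable between the types. The reads of the other variants came from few cells. Cox7a1, the heart and muscle form, had 209 reads in 3 ES cells, 67.5% of them from replicate 47, and 71 reads in 3 MEFs. Cox7b2 had 92 reads in 3 ES cells against 0 in MEFs. With a floor of 3 reads over the MEFs this is a level at least 124-fold higher, and 73.9% of these reads came from replicate 39.

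In complex V, 0 of 15 measured nuclear subunits were past 2-fold on the ES cell side and 2 on the MEF side, Atp5d and Atp5g1. The median was −0.36 (SD 0.350) and became 0.92 with median-of-ratios scaling and 0.34 without ribosomal protein and mitochondrial rows in the totals. Atp5e, the small epsilon subunit of the rotor stalk, had the most reads, from 0 to 1356 CPM in ES cells (median 482) and from 96 to 2320 CPM in MEFs (median 872), at −0.83 (SD 0.276) and lower in ES cells in 8 of 8 plate rows. Atp5d, the delta subunit beside it, gave −1.11 (SD 1.09), and Atp5b, the catalytic beta subunit, −0.57 (SD 0.792). The nuclear genes of the c-ring, whose mature proteins are identical, differed in their use. Atp5g1 had medians of 102 CPM (0 to 914) and 289 CPM (0 to 1006) and a log2 ratio of −1.10 (SD 0.565), and Atp5g3 33.4 CPM (0 to 574) and 220 CPM (0 to 779) with −0.99 (SD 0.878). Atp5g2 was level, with medians of 276 CPM (57 to 4043) and 289 CPM (60.3 to 1934) and a log2 ratio of 0.06 (SD 0.743). The ratio of Atp5g2 to Atp5g1 reads was 2.96 in ES cells and 1.32 in MEFs, a log2 difference of 1.16 (SD 0.748) in 7 of 8 rows, whereas Atp5g3 to Atp5g1 was 0.691 and 0.639.

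The balance between the genomes was then set out complex by complex, which needs no scaling. Reads of mitochondrial over nuclear subunits were 0.963 in ES cells and 0.469 in MEFs for complex I, a log2 difference of 1.04 (SD 0.792). For complex IV they were 1.84 and 0.923, a difference of 0.99 (SD 1.04), just within the spread. Complex V had 1.39 and 0.405, a difference of 1.78 (SD 1.11). Each of these 3 was positive in 7 of 8 plate rows. Complex III, with mt-Cytb as its mitochondrial part, had 0.409 and 0.319, a difference of 0.36 (SD 1.26) in 5 of 8 rows, also within the spread. Whether the complexes differ from each other in this balance was not tested.

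Among the 5 assembly factors, which help to build the complexes without staying in them, Ndufaf3 was past 2-fold on the ES cell side, with 88 reads in 12 ES cells and 166 reads in 6 MEFs and a log2 ratio of 1.10 (SD 1.96) that was 0.86 without ES cell replicate 40. The other 4 ranged from −0.75 to 0.10. Of the rows that are no subunits, Cox4nb, known as a component of an endoplasmic reticulum complex, gave −2.34 (SD 1.05), lower in ES cells in 8 of 8 plate rows, and Atp5s gave 0.06 (SD 2.03). Of the assembly factors outside the symbol rule, 25 of 28 listed were measured, with 3 past 2-fold on the ES cell side, 12 on the MEF side and a median of −0.92. For this and the following lists, 15.4% and 58.5% of all measured genes were past 2-fold on these sides, and relative to the median gene the median of this list was 0.56. Tmem70, which assists ATP synthase assembly, gave −3.74 (SD 1.81), Sdhaf2, which attaches the flavin of Sdha, −3.59 (SD 1.12), and Acad9, an assembly factor of complex I, −2.91 (SD 2.61). In ES cells, Tmem70 had 37 reads in 4 cells, Sdhaf2 33 in 9 and Acad9 68 in 7. Of the Acad9 reads in MEFs, 65.6% came from 1 cell.

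Genes that maintain and express mitochondrial DNA were listed as a further group, of which 28 were measured, 6 past 2-fold on the ES cell side and 12 on the MEF side, with a median of −0.52 (SD 0.749), or 0.96 relative to the median gene. Tfam, which packages mitochondrial DNA and starts its transcription, was 45.98 CPM in ES cells (41.6 to 50.7) and 14.1 CPM in MEFs (12.9 to 15.4), a log2 ratio of 1.71 (SD 2.07) with 41.1% of the ES cell reads from 1 cell. The mitochondrial RNA polymerase Polrmt, at 9 reads in 2 ES cells and 726 reads in 14 MEFs, gave −4.32 (SD 1.95), and the transcription factor Tfb2m −1.83 (SD 1.20). Of the mitochondrial ribosomal proteins, which translate the 13 mRNAs, 76 were measured, 12 past 2-fold on the ES cell side and 20 on the MEF side, with a median of 0.08 (SD 0.489), or 1.56 relative to the median gene. Of those named by rule, Mrpl45 gave 3.82 (SD 2.91), Mrpl33 −2.59 (SD 2.49) and Mrps21 −3.41 (SD 1.52). Mrps21 had 40 reads in 8 ES cells.

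Nuclear regulators of respiratory genes had 12 measured members, 2 past 2-fold on the ES cell side and 6 on the MEF side, with a median of −1.24 (SD 0.897). Their median was 0.24 relative to the median gene, so the list lay near the background of all genes. Esrrb, an orphan receptor that is itself an ES cell marker, was 92.1 CPM in ES cells (85.8 to 98.7) and 0.114 CPM in MEFs (0.031 to 0.291). The related receptor Esrra went the other way at −2.19 (SD 1.40), with 27 reads in 6 ES cells and 496 reads in 20 MEFs. Yy1 gave −4.00 (SD 1.87) and the hypoxia factor Hif1a −2.29 (SD 2.23), and both were lower in ES cells in 8 of 8 plate rows. Yy1 had 89 reads in 8 ES cells, 69.7% of them from 1 cell. Electron carriers and feeders had 16 measured members, 3 of them past 2-fold on the ES cell side and 4 on the MEF side, with a median of −0.42, or 1.06 relative to the median gene. Gpd2, which passes glycerol phosphate electrons to quinone, gave 1.40 (SD 2.37), whereas Etfa, part of the electron transfer flavoprotein of fat oxidation, gave −1.19 (SD 1.80) and the quinone synthesis gene Coq9 −3.51 (SD 2.75). Coq9 had 15 reads in 4 ES cells.

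Upstream of the chain, 21 genes of the TCA cycle and pyruvate dehydrogenase were measured, 4 past 2-fold on the ES cell side and 8 on the MEF side, with a median of −0.74 (SD 0.609), or 0.74 relative to the median gene. Citrate synthase, Cs, gave −2.49 (SD 1.88), Pdhb, a subunit of pyruvate dehydrogenase, 2.35 (SD 1.89), and Pdk1, a kinase that inhibits this enzyme, 3.79 (SD 3.13). Reads of Pdk1 came from 12 ES cells and 12 MEFs. The other listed kinases of this enzyme went the other way, Pdk2 at −4.36 (SD 2.76), Pdk3 at −3.87 (SD 2.57) and Pdk4 at −4.22 (SD 2.70). In ES cells they had 6, 24 and 0 reads, so the Pdk4 value rests on the floor of 3 reads. In the membrane, 10 carriers, pores and uncoupling genes were measured, 3 past 2-fold on the ES cell side and 2 on the MEF side, with a median of 0.24 (SD 0.591), or 1.72 relative to the median gene. The ADP/ATP exchangers changed places: Slc25a5 was 422 CPM in ES cells (408 to 436) and 95.1 CPM in MEFs (92.0 to 98.4), and Slc25a4 was 72.5 CPM (66.9 to 78.4) and 513 CPM (506 to 521). Their log2 ratios of 2.15 (SD 0.479) and −2.82 (SD 0.980) held in 8 of 8 plate rows. Ucp2, a carrier of the uncoupling protein family, had 1714 reads in 15 ES cells and 1 read in MEFs.

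Because STRT reads start at the 5′ end, the promoter letters of the nuclear subunits were also searched. RefSeq promoters (GRCm38.p6, 250 bases before to 50 after each start, both strands) were matched for 68 of the 83 subunits, giving 73 promoters. The palindromic NRF1 motif was found in 6.85% of these, against 2.00% of 12825 promoters of measured genes and 0.971% of all 32851, and with 1 central base left open, which includes the former, in 24.7%, 9.77% and 4.60%. The YY1 motif AAGATGGC was in 13.7%, 4.30% and 2.75%, the ETS motif CCGGAAG in 21.9%, 16.9% and 8.86%, and the estrogen-related receptor motif TCAAGGTCA in 2.74%, 0.250% and 0.423%. A match is a string of letters and not a measured site. Median log2 ratios were −0.33 for subunits with the open NRF1 motif and −0.20 for those without, −0.03 and −0.25 for the YY1 motif, −0.68 and −0.08 for the ETS motif (16 subunits with it), and −1.01 and −0.20 for the estrogen-related receptor motif (2 subunits, Atp5g3 and Sdhd). These differences were not tested. The 60 bases around the strict NRF1 motif are printed for 4 subunits of complexes I, IV and V in which it lies before the start, on the strand of the gene and with the motif in capitals, since Atp5g2 (0.06) and Cox6a1 (−0.86) share it with unlike ratios.
Atp5k, chr5:108434415-108434474, minus strand: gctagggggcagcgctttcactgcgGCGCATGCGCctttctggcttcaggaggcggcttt
Cox6a1, chr5:115349086-115349145, minus strand: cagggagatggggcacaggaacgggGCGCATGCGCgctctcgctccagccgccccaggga
Atp5g2, chr15:102671055-102671114, minus strand: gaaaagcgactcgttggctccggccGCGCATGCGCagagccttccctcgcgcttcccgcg
Ndufa11, chr17:56717677-56717736, plus strand: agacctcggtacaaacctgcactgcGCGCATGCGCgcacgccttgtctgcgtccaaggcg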

How the data were processed

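The authors deposited 1 table of raw read counts per transcript, repeat type and spike-in RNA in each well, with no normalisation. Per the file headers, counts are maximum exon hits, which include reads with other mappings, and a further deposited column counts reads that map uniquely. The submitters' processing notes name Bowtie. Its version is not given in the sources used here, nor are the genome build and annotation. The start of all 37 mitochondrial rows equals GRCm38.

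Counts were summed over kept cells and divided by gene reads (without spike-in and repeat rows) to give CPM, with Python 3.11.15, pandas 2.3.3 and SciPy 1.17.1. Where a group summed to 0, 3 reads were set as its floor, over all kept cells and also within a plate row. Polg2, with 0 reads in ES cells, was thus scored higher in ES cells in 6 plate rows and in MEFs in 2. Pooled CPM carry exact Poisson and shares exact binomial (Clopper-Pearson) intervals. The members and gene lists were chosen with earlier results of these data known. Named genes were all mitochondrial mRNAs, tissue variants and Sdh genes, in each complex the 3 highest by CPM and the 3 with the largest log2 ratio (10 CPM added, at least 100 reads), assembly factors at least 2-fold apart, and 3 of each list by the same ratio. From this set, 1 gene is not reported here. Other genes, such as Ndufb5, Ndufa8, Ndufa10, Ndufs8, Ndufb7, Cox5a, Cox7b2, mt-Tm, Cyc1, Esrra, Pdk2, Pdk3 and Pdk4, were named after their values were seen. On pooled counts simulated from these totals, 200 genes were given a fixed change well past 2-fold, up or down. Of these, 98.0% passed 2-fold, as did 1.228% of unchanged genes. Changes close to 2-fold were not simulated. The simulation held counting error only, without the spread between cells or plate rows. Its shares are therefore not error rates of the 2-fold counts reported here.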

Additional observations from a re-analysis of the deposited data

Results flagged for a closer look

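ES cell replicates 32 and 44 held too few gene reads (4136 and 9327) to enter any comparison, and had 75 and 97 mitochondrial reads. The highest negative control well had 74, among 4662 gene reads. Replicate 46, also left out, had 29 among 1641 gene reads (1.77%). The mitochondrial shares of replicates 32 and 44 were 1.81% and 1.04%, against 0.794% to 1.59% in the negative controls. Their ribosomal protein shares of 15.2% and 18.6% lay near the 13.6% to 19.5% of those wells and below the median of 46.2% in the kept ES cells.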

How the results depend on the processing

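The ratio of mitochondrial to nuclear reads cannot change under 6 of the alternatives (scalings of wells, row filters and added CPM), and under the other 15 it kept its direction, between 0.80 and 1.78. Most values that moved by more than the spread over plate rows, or by more than 1.5 times for counts, did so with the scaling of wells. With median-of-ratios scaling the mitochondrial share became 2.44, the nuclear subunit median 1.06, the medians of complexes I to V 1.04, 1.12, 0.88, 1.24 and 0.92, and the counts past 2-fold 43 on the ES cell side and 1 on the MEF side. With spike-in scaling the same values were −3.40, −4.79, −4.81, −4.72, −4.97, −4.61 and −4.92, with counts of 1 and 78. Without ribosomal protein and mitochondrial rows in the totals, the nuclear subunit median was 0.47, complexes I, III, IV and V gave 0.45, 0.29, 0.65 and 0.34, and the counts were 21 and 3. With the mean of per-cell CPM the nuclear subunit median was −0.52, complex III −0.60 and the ES cell count 3, and with 10 CPM added the MEF count was 7. The median of all genes shifted alongside, to −0.20, −6.04, −0.78, −1.30 and −0.50 in the order given, and the nuclear subunit median stayed above it, by 0.31 to 1.41. The alternatives without plate columns 3 and 7, without 4 ES cells that had more spike-in than gene reads, and with part of the members left out were chosen after seeing the data. Depth limits rows with few reads, such as the tRNAs and Ndufa9. No paired analysis was possible because the groups share no replicate number, and the comparison within plate rows is the one given as the SD over rows.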
